A study of Saccharomyces cerevisiae with 6 samples.

Results

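The 8 genes described here encode the enzymes that take succinyl-CoA to oxaloacetate in the tricarboxylic acid (TCA) cycle of *Saccharomyces cerevisiae*. They were taken by gene name from a table of read counts for 6400 named genes, and all 8 were found. LSC1 and LSC2 encode succinyl-CoA ligase, SDH1 to SDH4 succinate dehydrogenase, FUM1 fumarase and MDH1 the mitochondrial malate dehydrogenase.

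RNA was sequenced from 3 cultures of CX01F, an evolved strain, and from 3 cultures of CX01, its parent. The series asks how cells rearranged metabolism to grow on methanol. Both strains carry 1 genotype label. It gives the deletions ∆PEX31 and ∆PEX32, and as further genes S. Cnde1, S. cMDH3, S.c MDH2 and PEX5, next P. sXK, P. sXDH and P. sXR, then B. mACT1-skl and B. mMDH3-skl, and last P. pPYC, P. pDAK, P. Pdas1-skl and P. Paox1-SKL. Each culture passed from YPD, a rich medium, through Delft medium, a defined minimal one, to Delft medium with 1% methanol in place of glucose, and was collected at an OD600 near 1. The labels do not say how many clones of CX01F were grown, or which promoters drive the introduced genes. A culture or handling effect shared by the 3 CX01F cultures cannot be told apart from the strain.

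Each library held 51537969 to 63183824 counts, and the 8 genes drew between 7936 and 154930 counts each per library, far above the limit of 3 counts that a count of 0 allows, a limit that covers counting error only. Levels are CPM, counts per 1000000 counts of the TMM-scaled library. Across 5492 genes averaging 10 CPM or more, libraries of the same strain correlated at 0.998 to 0.999 (log2 scale), and libraries of different strains at 0.733 to 0.745. PEX31, labelled as deleted, had 0 or 1 count per library, while PEX32, also labelled as deleted, had 167 to 279. CPM are shares of the sequenced RNA, so a change in total RNA per cell cannot be told apart from a change in these genes. The counts are of RNA and show neither protein nor enzyme activity.

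Succinyl-CoA ligase releases coenzyme A from succinyl-CoA and conserves the energy as a nucleoside triphosphate. Succinate dehydrogenase sits in the inner mitochondrial membrane, where it oxidizes succinate to fumarate and, as complex II of the respiratory chain, hands the electrons to ubiquinone. Fumarase hydrates fumarate to malate, and malate dehydrogenase oxidizes malate to oxaloacetate, which takes up acetyl-CoA again or leaves for gluconeogenesis. In yeast many of these genes are repressed by glucose and activated on respiratory carbon sources by the Hap2/3/4/5 complex, which binds CCAAT boxes.

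All 8 genes were higher in CX01F, and in each of them the 3 CX01F libraries lay above the 3 CX01 libraries. The edgeR quasi-likelihood test called all 8 higher at an adjusted p under 0.05. The same test called 45.5% of the 6129 tested genes higher and 45.9% lower, 91.4% in either direction. Libraries of the strains did not overlap in 91.9% of the tested genes, with CX01F above CX01 in 45.8%. A call in this comparison is therefore common, and the sizes of the changes say more than the count. FUM1, SDH4 and LSC2 rose by at least 2-fold, as did 16.1% of the tested genes, while the other 5 rose by 1.22-fold to 1.61-fold. The median log2 change of the 8 genes was 0.65, beside -0.002 for all tested genes. Together the 8 genes took 0.831% to 0.835% of the counts in CX01F libraries and 0.434% to 0.440% in CX01 libraries.

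**Figure D1:**
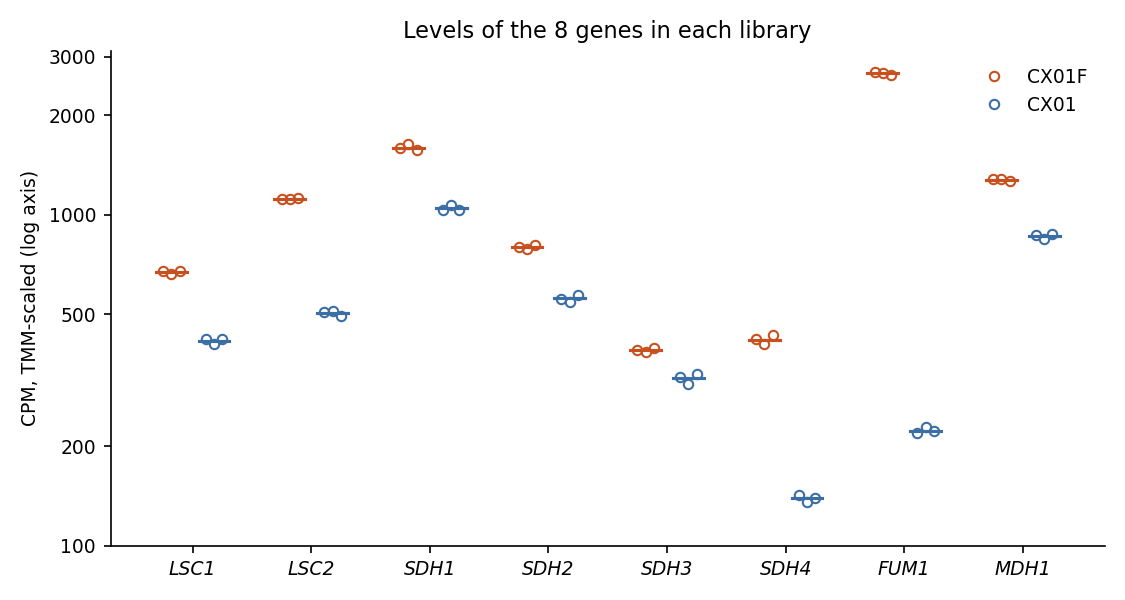
Level of each gene in each library, as CPM on TMM-scaled library sizes (log axis), with CX01F in orange and CX01 in blue; circles are libraries (n = 3 per strain) and lines are means. In each gene the CX01F circles lie above the CX01 circles, with the widest gap at FUM1 (2678 against 223 CPM) and the narrowest at SDH3 (390.0 against 320.1 CPM).

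Upstream sequence was read for the 500 bases before the start codon of each gene in RefSeq R64, since the genes rose together and the Hap complex binds CCAAT. Both strands were searched. CCAAT occurred upstream of 6 of the 8 genes, SDH1 to SDH4, FUM1 and MDH1, and upstream of 62.4% of 6000 nuclear coding genes. The longer ACCAATNA, which contains CCAAT, occurred upstream of SDH1 alone among the 8, and of 8.6% of all coding genes. GTCAC, the letters bound by Rtg1 and Rtg3, occurred upstream of LSC2, SDH1 and FUM1, and of 42.5% of all. The carbon source response element occurred upstream of none of the 8, and of 0.45% of all. These counts describe letters in the window and show no binding.

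The CCAAT stretches of the genes with the largest changes (FUM1, SDH4), the smallest (SDH3), and for SDH1, of its 3 stretches, the 1 within the longer match, are shown, 5′ to 3′ on the strand where CCAAT reads forward, with CCAAT in capitals and R64 coordinates.
FUM1, chrXVI:47047-47071, minus strand, 275 bases before the start codon: caggaaagagCCAATcatcgaacgc
FUM1, chrXVI:46970-46994, minus strand, 352 bases before the start codon: tgaagcctctCCAATatggtagtga
SDH4, chrIV:817707-817731, plus strand, 229 bases before the start codon: aagcattgagCCAATcgctgctgtt
SDH4, chrIV:817466-817490, plus strand, 470 bases before the start codon: tccttagaccCCAATgacaacaaca
SDH3, chrXI:179510-179534, minus strand, 143 bases before the start codon: gctaccgcagCCAATcagaatggac
SDH3, chrXI:179628-179652, plus strand, 25 bases before the start codon: ccaaaaattgCCAATcacaagctct
SDH1, chrXI:171432-171456, minus strand, 313 bases before the start codon: cgggggtggaCCAATcacagcgcag
FUM1, which rose 12.02-fold, and SDH3, which rose 1.22-fold, both held 2 such stretches. LSC1, which rose 1.61-fold, and LSC2, which rose 2.22-fold, held none. Whether CCAAT in this window bears on the size of the changes was not tested.

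Succinyl-CoA ligase is a dimer of the products of LSC1, the alpha subunit, and LSC2, the beta subunit. LSC1 had 674, 662 and 679 CPM in CX01F libraries, against 421, 407 and 420.5 CPM in CX01 libraries. It rose 1.61-fold (log2 0.69, SE 0.026, edgeR adjusted p = 2.73e-12). LSC2 had 1118, 1115 and 1125 CPM in CX01F libraries, against 508, 512 and 495 CPM in CX01 libraries. The libraries of each strain lay close together, and LSC2 rose 2.22-fold (log2 1.15, SE 0.026, edgeR adjusted p = 7.39e-15), more than its partner did.

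The RNA ratio of the pair therefore moved toward LSC2. The log2 ratio of LSC1 to LSC2, in CPM, was -0.73, -0.75 and -0.73 in CX01F libraries and -0.27, -0.33 and -0.23 in CX01 libraries, with no overlap. The ratio differed by -0.46 on the log2 scale (SE 0.029). An exact two-sided permutation test gave p = 0.1, the smallest that 3 against 3 libraries allow; this bound holds for every ratio and share given here, and adjustment over them can only raise p. Per kb of coding length, in CX01F LSC1 stood at 678 ± 8.96 and LSC2 at 872 ± 4.02 CPM per kb, while in CX01 LSC1 stood at 420.3 ± 7.71 and LSC2 at 393 ± 7.09 CPM per kb (SD, n = 3 each). LSC1 lies on chromosome XV and LSC2 on chromosome VII. Set against the median log2 change of its own chromosome, LSC1 stood at 1.55 and LSC2 at 1.02, the reverse order.

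Succinate dehydrogenase has 4 subunits. SDH1 encodes the flavoprotein, which holds the FAD and the succinate site, and SDH2 the iron-sulfur subunit that passes the electrons on to the membrane anchor. SDH1 had 1589, 1637 and 1565 CPM in CX01F libraries, against 1034, 1069 and 1035 CPM in CX01 libraries. SDH2 had 799, 787 and 813 CPM in CX01F libraries, against 558, 546 and 574 CPM in CX01 libraries. Transcripts of both catalytic subunits were higher in every CX01F library than in any CX01 library. SDH1 rose 1.53-fold (log2 0.61, SE 0.028) and SDH2 1.43-fold (log2 0.52, SE 0.028), with edgeR adjusted p of 3.30e-11 and 1.85e-10. Their log2 ratio overlapped between the strains, at 1.00 ± 0.0566 in CX01F and 0.90 ± 0.0616 in CX01 (SD, n = 3 each; difference 0.09, SE 0.048; exact permutation p = 0.2).

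SDH3 and SDH4 encode the membrane anchor, where ubiquinone is reduced. SDH3 had 390.2, 384 and 396 CPM in CX01F libraries, against 323, 307 and 329.9 CPM in CX01 libraries. This was the smallest rise of the 8 genes, at 1.22-fold (log2 0.29, SE 0.03, edgeR adjusted p = 4.13e-07). SDH4 had 420.1, 407 and 433 CPM in CX01F libraries, against 143, 136 and 139 CPM in CX01 libraries. It rose 3.02-fold (log2 1.59, SE 0.03, edgeR adjusted p = 1.18e-15), the largest rise of the 4 subunits.

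The 2 anchor genes thus changed by very different amounts. The log2 ratio of SDH3 to SDH4 was -0.11, -0.08 and -0.13 in CX01F libraries and 1.18, 1.18 and 1.25 in CX01 libraries, a difference of -1.31 (SE 0.026; exact permutation p = 0.1, the smallest possible). In CPM per kb SDH3 stood at 653 ± 10.4 and SDH4 at 769 ± 24.0 in CX01F, while in CX01 SDH3 stood at 536 ± 19.5 and SDH4 at 255 ± 6.12 (SD, n = 3 each). Between the highest and the lowest of the 4 subunits the level per kb differed 1.53-fold in CX01F and 2.74-fold in CX01. In both strains SDH2 was the highest of the 4, while the lowest was SDH3 in CX01F and SDH4 in CX01. SDH3 lies on chromosome XI and SDH4 on chromosome IV. Set against the median log2 change of its own chromosome, SDH3 stood at 1.10 and SDH4 at 1.58, nearer to each other than the changes themselves.

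FUM1 changed most. A single gene supplies fumarase to both mitochondria and cytosol in yeast. FUM1 had 2698, 2688 and 2649 CPM in CX01F libraries, against 219, 228 and 222 CPM in CX01 libraries. The rise was 12.02-fold (log2 3.59, SE 0.03, edgeR adjusted p = 5.52e-19), and only 6 of the 466 tested coding genes of its chromosome, XVI, rose more. FUM1 made up 29.9 ± 0.211% of the summed CPM of the 8 genes in CX01F and 5.48 ± 0.136% in CX01 (SD, n = 3 each). Without FUM1 the other 7 summed to 6274 ± 3.63 CPM in CX01F, against 3847 ± 24.4 CPM in CX01, a ratio of 1.63.

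MDH1 encodes the malate dehydrogenase of the mitochondrial matrix, the enzyme that closes the cycle. It had 1285, 1279.95 and 1267 CPM in CX01F libraries, against 866, 842 and 875 CPM in CX01 libraries. The strains did not overlap, and the rise was 1.48-fold (log2 0.57, SE 0.026, edgeR adjusted p = 3.12e-11). FUM1, which encodes the enzyme before it in the path, was above MDH1 in CX01F and below it in CX01. The log2 ratio of FUM1 to MDH1, in CPM, was 1.07 ± 0.00336 in CX01F and -1.95 ± 0.0555 in CX01 (SD, n = 3 each; exact permutation p = 0.1).

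The order of the 8 genes by level per coding length differed between the strains. In CX01F it ran FUM1 (1826 ± 17.6 CPM per kb), MDH1 (1271 ± 9.39), SDH2 (998 ± 16.6), LSC2, SDH1 (831 ± 19.1), SDH4, LSC1 and SDH3, and each neighbour was separated from the next beyond the spread of its libraries. In CX01 it ran MDH1 (857 ± 16.7 CPM per kb), SDH2 (698 ± 17.9), SDH1 (544 ± 10.5), SDH3, LSC1, LSC2, SDH4 and FUM1 (152 ± 3.20). There SDH1 and SDH3 were not separated, since their libraries overlapped. FUM1 was thus the highest of the 8 genes in CX01F and the lowest in CX01. Among 5853 tested genes with a coding length, 63 stood above FUM1 per kb in CX01F and 1175 in CX01, while for MDH1 these numbers were 129 and 126. SDH2 had 181 genes above it in both strains, and SDH1 had 246 in both. SDH3 had 324 above it in CX01F and 254 in CX01, so its place among all genes was lower in CX01F although its CPM was higher.

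**Figure D2:**
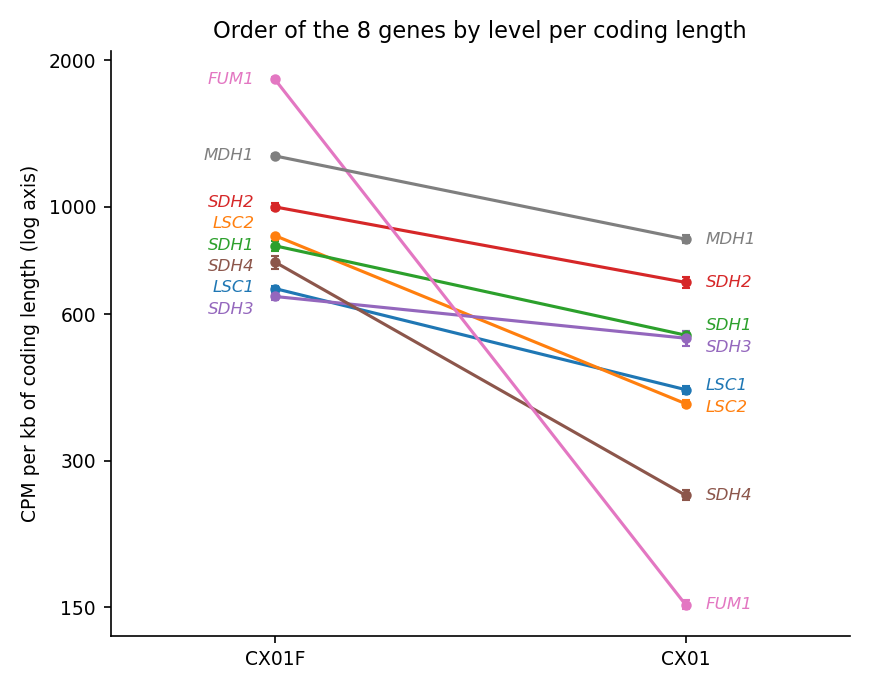
Mean level of each gene in CPM per kb of coding length (log axis) in CX01F (left) and CX01 (right), with bars for the SD over 3 libraries and 1 line per gene. FUM1 stands at the top in CX01F (1826 CPM per kb) and at the bottom in CX01 (152), and SDH4 is the other gene with a steep line.

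Over the 28 pairs of the 8 genes, the log2 ratio did not overlap between the strains in 25, beside 91.7% of all pairs of tested genes, so unequal change is the rule in this comparison and not a mark of these genes. The 3 pairs that overlapped all held SDH1, with LSC1 (difference of log2 changes 0.08, SE 0.043), SDH2 (0.09, SE 0.048) and MDH1 (0.04, SE 0.036). No pair could pass a threshold, since the smallest exact permutation p is 0.1 and its Benjamini-Hochberg value over the 28 pairs 0.112. LSC1, SDH1, SDH2 and MDH1 formed a narrow band between log2 0.52 and 0.69, with SDH3 under it and LSC2, SDH4 and FUM1 above it.

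Median changes on chromosomes XI and XV lay below those of the other chromosomes. The median log2 change of tested coding genes was -0.82 on chromosome XI (315 genes) and -0.86 on chromosome XV (536 genes), against 0.02 to 0.26 on the other 14 nuclear chromosomes. SDH1, SDH3 and MDH1 lie on XI and LSC1 on XV, so 4 of the 8 genes belong to these chromosomes. On XI 16.2% of the genes were called higher, and on XV 16.4%. SDH1 ranked 25, MDH1 27 and SDH3 40 by log2 change among the 315 genes of XI, and LSC1 ranked 46 among the 536 of XV.

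Set against the median of its own chromosome, SDH1 stood at 1.43 on the log2 scale, MDH1 at 1.39, SDH3 at 1.10 and LSC1 at 1.55. FUM1 on XVI stood at 3.50, SDH4 on IV at 1.58, LSC2 on VII at 1.02 and SDH2 on XII at 0.32. By this measure SDH2 was the lowest of the 8, where SDH3 was the lowest before. LSC1 stood above LSC2 by this measure and below it before. The part of the chromosome-wide shift in the changes of these 4 genes was not tested.

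**Figure D3:**
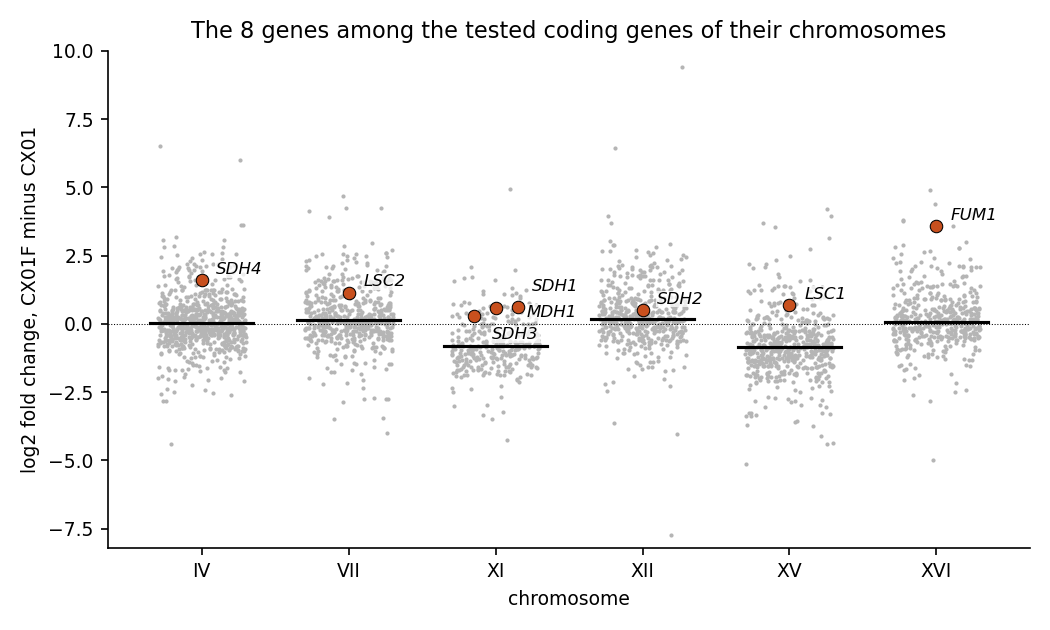
Log2 fold change of the 8 genes (orange) among all 3094 tested coding genes (grey) of the 6 chromosomes that hold them, with black lines at the chromosome medians. The medians of XI (-0.82) and XV (-0.86) lie below the others, and each of the 8 genes lies above the median of its chromosome.

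The scaling bears on the smaller changes. Scaling by library size alone, without TMM, shifted the log2 changes of the tested genes by a median of -0.207, and taking the TMM factors from genes off chromosomes XI and XV shifted them by -0.113. All 8 genes were still called higher under both. SDH3 then stood at log2 0.08 (edgeR adjusted p = 0.0247) and 0.17, SDH2 at 0.31 and 0.40, MDH1 at 0.36 and 0.46, and SDH1 at 0.40 and 0.50. LSC2 stood at 0.94 with library size only, under 2-fold, and at 1.03 with the other factors.

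Genes of the first part of the cycle, from citrate synthase to the 2-oxoglutarate dehydrogenase complex, were also higher in CX01F. All 10 were called higher, beside 45.5% of all tested genes. Their log2 changes ran from 1.25 to 2.68 with a median of 1.68, beside 0.65 for the 8 genes. CIT1, the mitochondrial citrate synthase, was at 2170 ± 3.65 CPM in CX01F, against 338 ± 3.74 CPM in CX01 (log2 2.68). IDH1, a subunit of NAD-dependent isocitrate dehydrogenase, rose by a log2 of 2.01. The log2 changes of 6 of the 8 genes from succinyl-CoA to oxaloacetate lay below the lowest of these 10, that of IDH2 at 1.25. Only 1 of the 10, IDH2, lies on chromosomes XI or XV. With the chromosome medians subtracted, a comparison added after seeing the data, the median was 1.41 for the 8 genes and 1.68 for the 10, and 3 of the 8 lay below the lowest of the 10. Whether the 2 stretches of the cycle differ was not tested.

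**Figure D4:**
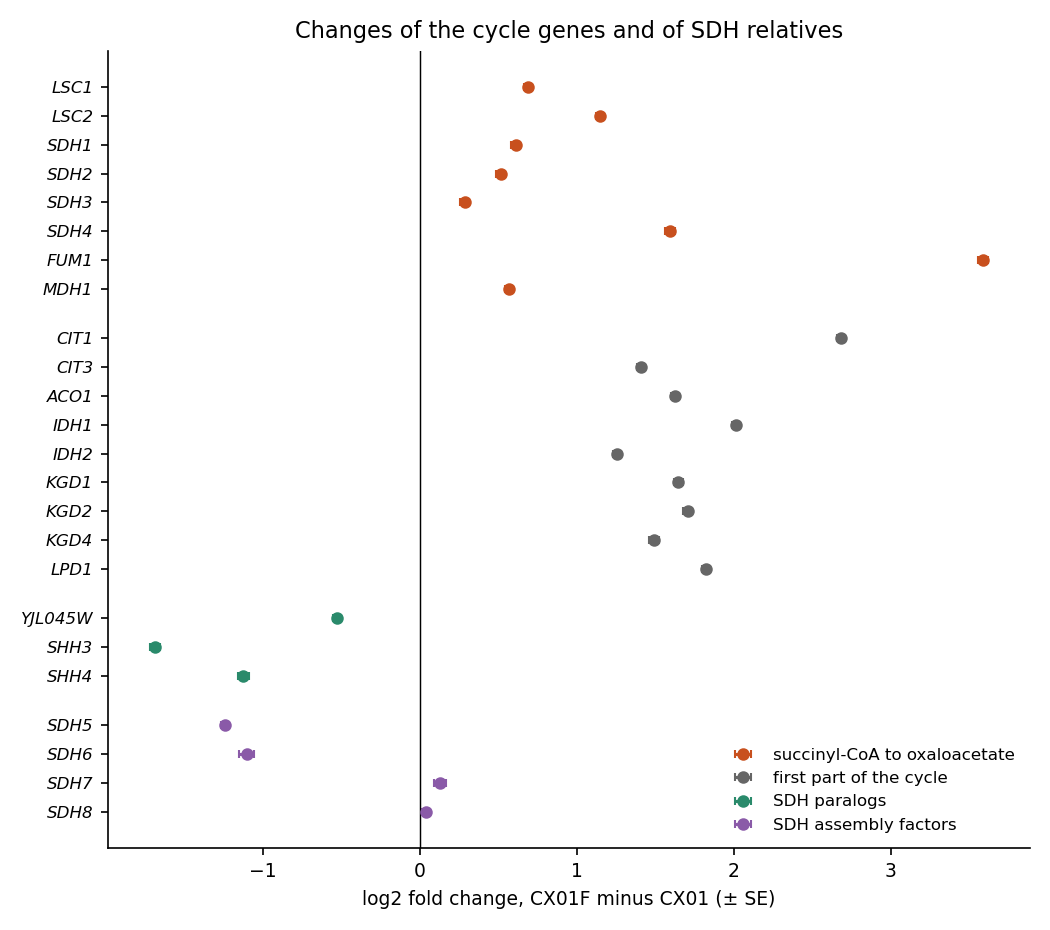
Log2 fold change, CX01F minus CX01, of the 8 genes (orange), genes of the first part of the cycle (grey, 1 of the 10 not drawn), paralogs of SDH subunits (green) and SDH assembly factors (purple), with bars for the SE over 3 and 3 libraries. The 8 orange genes run from 0.29 to 3.59, the grey ones from 1.25 to 2.68, and the 3 green ones lie below 0.

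Paralogs of the succinate dehydrogenase subunits were lower in CX01F, against the direction of the subunits. YJL045W, named SDH9 in RefSeq, is a minor copy of SDH1. It had 103, 105 and 101 CPM in CX01F libraries, against 148, 149 and 147 CPM in CX01 libraries (log2 -0.53, SE 0.026, edgeR adjusted p = 6.33e-11). SHH3, a homolog of SDH3, was 3.22-fold lower, at 37.7 ± 0.446 CPM in CX01F, against 122 ± 3.80 CPM in CX01 (log2 -1.69). SHH4, a homolog of SDH4, was 2.18-fold lower, at 26.1 ± 0.427 CPM in CX01F, against 56.8 ± 0.647 CPM in CX01 (log2 -1.12; SD, n = 3 each). None of the 3 lies on XI or XV.

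The subunit genes took a larger share of each pair in CX01F. In CPM per kb SDH1 made up 93.9 ± 0.0251% of SDH1 and YJL045W in CX01F and 87.5 ± 0.165% in CX01. SDH3 made up 91.1 ± 0.124% of SDH3 and SHH3 in CX01F, against 72.3 ± 0.498% in CX01. SDH4 made up 93.7 ± 0.19% of SDH4 and SHH4 in CX01F, against 69.5 ± 0.674% in CX01. The strains did not overlap in any of the 3 shares (exact permutation p = 0.1 for each, the smallest possible). Reads could be confused between near copies, so the coding sequences were compared in RefSeq R64. SDH1 and YJL045W were 74.97% identical with a longest shared run of 23 bases, and SDH3 and SHH3 52.55% with 10 bases. SDH4 and SHH4 were 56.65% identical with a longest shared run of 17 bases.

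Genes for assembly of succinate dehydrogenase went both ways. SDH5, needed to attach FAD to Sdh1, was 2.36-fold lower, at 102 ± 1.71 CPM in CX01F, against 242 ± 1.89 CPM in CX01 (log2 -1.24, SE 0.025), and lies on XV. SDH6, an assembly factor for the Sdh2 subunit, was 2.15-fold lower, at 26.0 ± 0.904 CPM in CX01F, against 55.9 ± 3.29 CPM in CX01 (log2 -1.10, SE 0.047), and lies on IV. SDH7, which also acts on Sdh2, was at 30.4 ± 0.745 CPM in CX01F, against 27.8 ± 0.427 CPM in CX01 (log2 0.13, edgeR adjusted p = 0.00618), a difference that turned to -0.077 with scaling by library size and did not pass with TMM factors from genes off XI and XV (edgeR adjusted p = 0.686). SDH8, which binds flavinylated Sdh1, was at 179.8 ± 1.38 CPM in CX01F, against 175 ± 3.55 CPM in CX01 and did not pass (log2 0.04, edgeR adjusted p = 0.152), but was called lower with library size only (log2 -0.17, edgeR adjusted p = 2.71e-05) and with TMM factors from genes off XI and XV (log2 -0.073, edgeR adjusted p = 0.0152). Of these 4 genes 2 fell and 1 rose, beside 45.9% and 45.5% of all tested genes, while under each of those other scalings 3 fell and 0 rose.

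Malate dehydrogenase has 3 isozymes in yeast. MDH2, the cytosolic one, and MDH3, the peroxisomal one, are both on the genotype label, and the counts do not separate native from added copies. In CPM per kb MDH2 on chromosome XV stood at 6130 ± 10.3 in CX01F and 332 ± 12.6 in CX01, while MDH3 stood at 415 ± 7.60 in CX01F and 324 ± 3.92 in CX01 (SD, n = 3 each). MDH1 made up 16.3 ± 0.115% of the 3 isozymes in CX01F and 56.6 ± 0.885% in CX01, so its share was lower in CX01F although its own level was higher. The share of MDH2 was 78.4 ± 0.053% in CX01F and 21.9 ± 0.91% in CX01, and that of MDH3 was 5.31 ± 0.0916% in CX01F and 21.4 ± 0.121% in CX01. Each share differed without overlap (exact permutation p = 0.1). The coding sequence of MDH1 was 54.3% identical to MDH2 and 53.55% to MDH3, with longest shared runs of 14 and 11 bases.

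**Figure D5:**
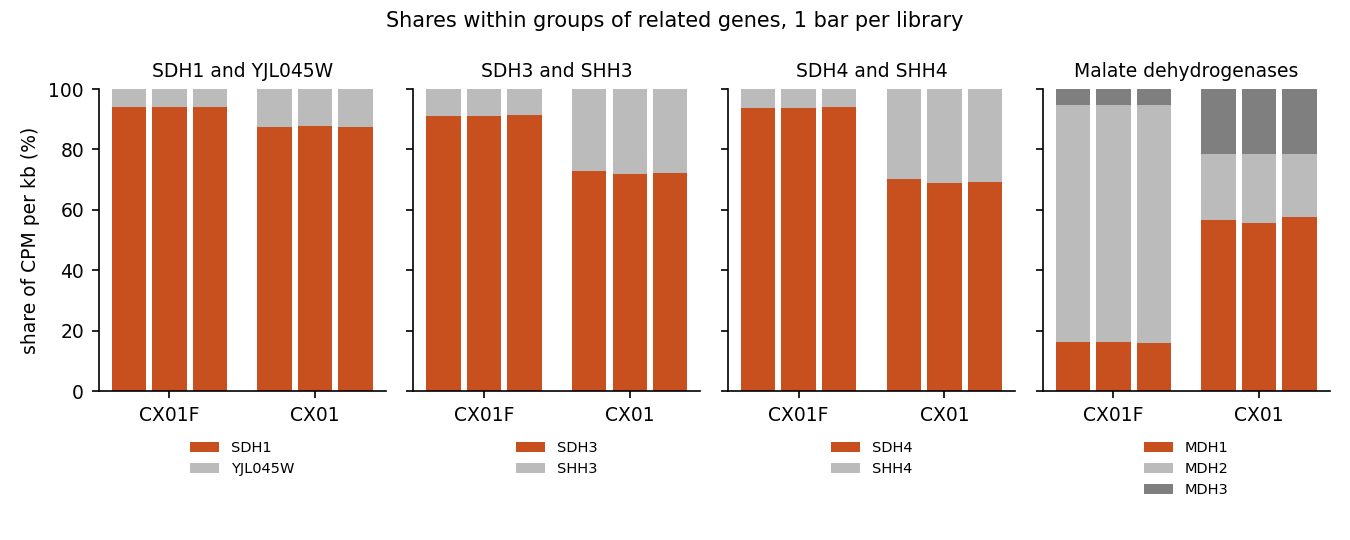
Share of CPM per kb (%) of SDH1, SDH3 and SDH4 beside their paralogs and of MDH1 beside MDH2 and MDH3, 1 bar per library, with CX01F left of CX01 in each panel. Orange marks the genes of this path: 93.9% against 87.5% for SDH1, 91.1% against 72.3% for SDH3, 93.7% against 69.5% for SDH4 and 16.3% against 56.6% for MDH1.

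Genes for other enzymes that make or use fumarate, malate or oxaloacetate mostly rose. Of the 8 genes in this list, which includes MDH2 and MDH3, 7 were called higher and 1 lower, beside 45.5% and 45.9% of all tested genes. PCK1, the phosphoenolpyruvate carboxykinase that draws on oxaloacetate for gluconeogenesis, was at 9817 ± 31.7 CPM in CX01F, against 318 ± 27.0 CPM in CX01 (log2 4.95, SE 0.057), a 30.8-fold rise on chromosome XI. The pyruvate carboxylases, which make oxaloacetate in the cytosol, moved apart: PYC2 rose by a log2 of 2.26, to 597 ± 14.2 CPM in CX01F against 125 ± 4.21 CPM in CX01. PYC1 was 2.19-fold lower, at 509 ± 15.6 CPM in CX01F, against 1113 ± 50.7 CPM in CX01. MAE1, the mitochondrial malic enzyme, on XI as well, rose 2.12-fold. The fumarate reductases OSM1 and FRD1, which run the succinate dehydrogenase reaction backwards with a soluble flavin donor, rose by a log2 of 0.56 and 0.36.

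Genes for isocitrate lyase and malate synthase of the glyoxylate cycle, which feeds succinate and malate into this path, were higher in CX01F. They were listed with 2 related genes outside that cycle, ICL2 and DAL7. All 4 were called higher, beside 45.5% of all tested genes, and their median log2 change was 3.82. ICL1, isocitrate lyase, which yields succinate, was at 10964 ± 43.5 CPM in CX01F, against 110.3 ± 13.6 CPM in CX01 (log2 6.63). MLS1, malate synthase, was at 5605 ± 35.6 CPM in CX01F, against 119.6 ± 6.40 CPM in CX01 (log2 5.55), and ICL2, a mitochondrial 2-methylisocitrate lyase, rose by a log2 of 2.08. DAL7, the malate synthase of allantoin use, named after its value was seen, rose by a log2 of 0.96.

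Genes for mitochondrial carriers of these acids were all called higher, 7 of 7, beside 45.5% of all tested genes. Their median log2 change was 1.49. SFC1 exchanges succinate for fumarate across the inner membrane, and so carries the substrate and product of succinate dehydrogenase. It was at 2493 ± 10.2 CPM in CX01F, against 143 ± 2.37 CPM in CX01, a 17.5-fold rise (log2 4.13, SE 0.03). YHM2, a citrate and 2-oxoglutarate carrier, rose by a log2 of 3.14, and ODC2, a 2-oxodicarboxylate carrier on chromosome XV, by 2.34.

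Regulators of the cycle genes went both ways. Of 8 genes 3 were called higher and 5 lower, beside 45.5% and 45.9% of all tested genes. The list had a median log2 change of -0.37. RTG1, which with Rtg3 activates genes of the first part of the cycle, was 4.41-fold lower, at 49.9 ± 1.60 CPM in CX01F, against 219.8 ± 6.89 CPM in CX01 (log2 -2.14). HAP5 and HAP2 encode DNA-binding subunits of the CCAAT-binding complex. HAP5 fell to 54.8 ± 1.24 CPM in CX01F, against 109.5 ± 2.34 CPM in CX01, and HAP2 changed by a log2 of -0.83. RTG1 and HAP5 lie on XV, HAP2 on VII. The 3 higher genes, named after their values were seen, were HAP4, the activating subunit whose level responds to carbon source (log2 0.38), RTG3 (0.25) and RTG2 (0.12), but with scaling by library size RTG2 was called lower (log2 -0.092, edgeR adjusted p = 0.00593) and RTG3 lost its call (log2 0.046).

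Genes outside these lists whose profile lay nearest to the mean profile of the 8 were PBI2, MIC19, GCG1, FET4 and PRO1. Likeness was the Euclidean distance between log2 CPM profiles over 6 libraries, each centred on its mean, among 5440 genes averaging 10 CPM or more. The distances ran from 0.0304 (PBI2) to 0.0398 (PRO1), and the log2 changes of these 5 genes were 1.11 to 1.15, beside 1.12 for the mean profile. Among the 8 themselves LSC2 lay nearest to that mean, at 0.0585, and FUM1 farthest, at 3.02. The rest lay between 0.533 (LSC1) and 1.03 (SDH3). The mean profile thus lay near LSC2 alone, and above the median log2 change of the 8 genes, 0.65. The 6 libraries fall into 2 strains, so this distance reflects mainly the size of the strain difference.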

How the data were processed

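The authors deposited whole-number read counts per gene for 6 libraries, not normalized. Tools given in the submitters' processing notes, with no role, are Subread 1.4.6, featureCounts, TopHat2 2.0.12 and Cufflinks. The genome build, annotation, strand setting and treatment of multi-mapping reads are not given in the sources used here. No other gene in the RefSeq R64 table overlaps any of the 8 genes. A row without a gene name, 0.00877% to 0.00916% of counts in CX01F and 0.0392% to 0.044% in CX01, was left out. RefSeq R64 was matched by symbol, systematic name or unambiguous synonym (6083 of 6400 genes, all 52 listed ones). It supplied only gene names, chromosomes, gene positions, coding sequences with their lengths, and upstream sequence.

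Counts were filtered with filterByExpr (minimum count 10, minimum total 15; 6129 genes tested), scaled by TMM and tested with the quasi-likelihood test of edgeR 4.0.16 in R 4.3.3, with strain as the only term, two-sided, and Benjamini-Hochberg adjustment over all tested genes. A gene was called at an adjusted p under 0.05. The script was tested on simulated data. Log2 changes are CX01F minus CX01, SE is the change divided by the square root of F, and errors after ± are SDs over 3 libraries. P-values measure the spread between these cultures, which the labels call biological replicates. Ratios and shares were compared per library by exact permutation. The members and lists were chosen with earlier results of these data known. Named were the 8 genes, all genes of 3 lists (SDH paralogs, SDH assembly, other malate, fumarate and oxaloacetate enzymes), the 3 largest called changes at 10 CPM or more of each other list, and the 5 nearest profiles; 1 gene so chosen, in the first part of the cycle, is not reported here. IDH2, DAL7, HAP4, RTG2 and RTG3 were named after their values were seen. Alternatives were other scalings, no filter, DESeq2 1.42.0, limma 3.58.1 (voom), leaving out each library, a replicate block and subtraction of chromosome medians.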

Additional observations from a re-analysis of the deposited data

How the results depend on the processing

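All 8 genes were called higher under each of the 13 refits, and their log2 changes stayed between 0.08 (SDH3, library size only) and 3.602 (FUM1). The count of called genes was 5603 and lay between 5501 and 5617 without any 1 library. A replicate block gave 5619, and no call among the listed genes changed. Deviations of same-numbered libraries correlated at 0.0385, 0.305 and 0.0386, and 2 of the 3 CX01F libraries correlated best with another number, so the numbers do not show pairs. Against the chromosome median the 8 genes stood at 1.55 (LSC1), 1.02 (LSC2), 1.43 (SDH1), 0.32 (SDH2), 1.10 (SDH3), 1.58 (SDH4), 3.50 (FUM1) and 1.39 (MDH1), and their median at 1.41. Of the assembly factors 0 were called higher and 3 lower with library size only, and likewise with TMM factors from genes off XI and XV, against 1 higher and 2 lower. Of the regulators 1 was called higher and 6 lower with library size only, against 3 and 5. SDH7 turned to -0.077, SDH8 to -0.17 and RTG2 to -0.092 with library size only, and SDH8 to -0.073 with the other TMM factors; SDH8 in both and RTG2 were then called lower. RTG3 did not pass with library size only (0.046), nor RTG2 with the other factors (0.0026). The shift of all log2 changes under these scalings accounts for the turns. Higher calls numbered 2221 and lower calls 3407 with library size only, against 2787 and 2816. The ratios of LSC1 to LSC2, SDH1 to SDH2, SDH3 to SDH4 and FUM1 to MDH1 kept their direction with CPM plus 1. Without any single library these ratios and the malate dehydrogenase shares kept it too. Depth did not limit the 8 genes, the lowest count being 7936.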
